A study of Mus musculus with 11 samples.

Results

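Ribonucleotide reductase and a small group of DNA replication genes were examined in liver RNA of mice lacking Gsr, which encodes glutathione reductase, and of wild-type (WT) mice. The 9 genes were Rrm1, Rrm2, Pcna, Mcm2, Mcm6, Mcm7, Tyms, Ccnd1 and Ccne2. They were represented by every probe set that the platform annotation gives to exactly 1 of these symbols, which came to 21 probe sets of the 22690 on the array. A further probe set annotated to a member together with another symbol was left out. Expression was measured on single-colour arrays in 6 Gsr-null and 5 WT livers, each labelled as a biological replicate. Samples are numbered here by that replicate number, which for the Gsr-null livers is not the number in the sample names of the labels. All mice were C57BL/6J males aged 15 to 20 weeks whose livers were taken between 2 and 4 p.m. The labels do not describe how Gsr was disrupted, and name no treatment. Values are on the log2 scale, so a difference of 1 is a doubling, and the number of arrays limits their precision.

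Ribonucleotide reductase converts ribonucleotides to deoxyribonucleotides and so supplies the building blocks of DNA. Rrm1 is its large subunit and Rrm2 the small subunit that is made mainly in dividing cells. Each catalytic cycle leaves a disulfide in the enzyme, which thioredoxin or glutaredoxin reduces again, and glutaredoxin draws on reduced glutathione, the product of glutathione reductase. Mcm2, Mcm6 and Mcm7 are subunits of the replicative helicase, Pcna is the sliding clamp of the DNA polymerases, and Tyms makes thymidylate. Ccnd1 and Ccne2 are cyclins of the passage from G1 to S phase. Hepatocytes of the adult liver rarely divide.

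The promoters of Mcm6 and Rrm2 are shown because these members varied widely between livers. E2F transcription factors drive many S-phase genes, and letters of the E2F type were searched as TTTCCCGC, TTTCGCGC, TTTGCCGC and TTTGGCGC on both strands, together with CCAAT on both strands. Each window holds 250 bases before to 50 after the gene's start, read 5′ to 3′ on the gene's strand from RefSeq on GRCm38.p6. Capitals mark the matches. Mcm6 lies at chr1:128359656-128359955 on the minus strand, and Rrm2 at chr12:24708004-24708303 on the plus strand.
Mcm6: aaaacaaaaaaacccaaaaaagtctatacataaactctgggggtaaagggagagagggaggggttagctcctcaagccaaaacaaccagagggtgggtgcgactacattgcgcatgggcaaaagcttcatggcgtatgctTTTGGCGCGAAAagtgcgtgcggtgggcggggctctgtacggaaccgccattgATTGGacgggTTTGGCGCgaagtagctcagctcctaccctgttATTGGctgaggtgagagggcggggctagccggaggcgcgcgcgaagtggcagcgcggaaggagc
Rrm2: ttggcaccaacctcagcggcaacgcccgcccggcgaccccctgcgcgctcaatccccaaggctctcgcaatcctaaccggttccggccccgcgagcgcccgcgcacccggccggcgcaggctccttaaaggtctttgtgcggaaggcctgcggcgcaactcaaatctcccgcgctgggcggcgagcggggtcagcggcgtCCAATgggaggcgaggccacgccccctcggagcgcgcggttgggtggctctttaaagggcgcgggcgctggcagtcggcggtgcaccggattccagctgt
The Mcm6 window held 3 E2F-type matches, of which a pair on opposite strands overlap, and 2 CCAAT matches. The Rrm2 window held 0 E2F-type matches and 1 CCAAT match. Of 32851 promoter windows of this length, 2.26% held an E2F-type match and 37.4% a CCAAT match. Windows were found for 7 of the 9 members, 8 windows in all. The upstream one of the Mcm7 windows held 2 E2F-type matches, and the windows of Pcna, Rrm1, Mcm2 and Tyms held 0. These letters are descriptions and no binding was measured.

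Gsr, the disrupted gene, averaged 4.99 ± 0.207 (SD, n = 6) in Gsr-null livers and 6.82 ± 0.126 (SD, n = 5) in WT livers, and the groups did not overlap. The summed level of the 5 hepatocyte markers on the array was 16.2 to 16.4 in Gsr-null and 16.1 to 16.4 in WT livers. The difference between the 3' and 5' control probe sets of Gapdh and Actb, which depends on RNA integrity and on the labelling reaction, split the livers into a lower set, at 0.544 to 0.703, and a higher set, at 1.20 to 1.75. Gsr-null samples 1, 2 and 3 and WT samples 2 and 4 formed the lower set. Gsr-null samples 4, 5 and 6 and WT samples 1, 3 and 5 formed the higher set. The array of Gsr-null sample 6 had 9094 probe sets above a log2 value of 4, the fewest of the 11 arrays, against 9377 to 9603 on the others. Results are also given within both sets. Between the sets the tested member probe sets had limma adjusted p of 0.273 to 0.909, which does not show that the split leaves them unaffected. The share of all probe sets called between the sets is not given here.

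A log2 value of 4 was the level below which signal was treated as low, and a probe set was tested if it exceeded this level in at least 5 livers. Of the 21 member probe sets, 8 passed, covering Rrm1, Rrm2, Pcna, Mcm6, Mcm7 and Ccnd1. The remaining 13 did not pass, among them every probe set of Mcm2, Tyms and Ccne2. Below 4 in all 11 livers lay 8 probe sets: both of Mcm2, all 3 of Tyms, the 1 of Ccne2, and 1 each of Rrm1 and Rrm2. Above 4 in every liver lay 3, those of Pcna, Mcm7 and Ccnd1 with the highest mean of their gene. The other 10 crossed the level from liver to liver.

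**Figure D1:**
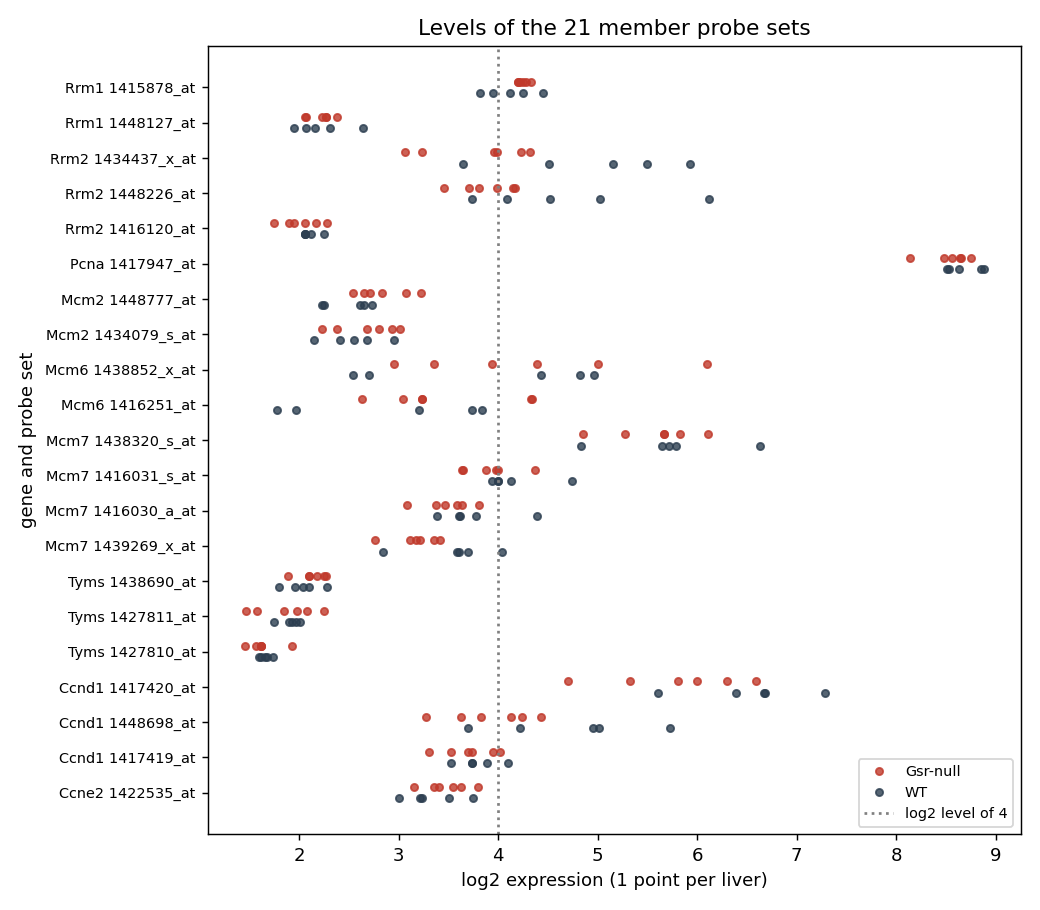
Log2 expression of each of the 21 member probe sets (rows) in 6 Gsr-null and 5 WT livers, 1 point per liver. The dotted line marks the log2 level of 4; 8 probe sets lie wholly below it and 3 wholly above.

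No member passed the test between genotypes. Differences were fitted with limma over all 9560 tested probe sets, with Benjamini-Hochberg adjustment across them, and 0 of the 8 tested member probe sets had an adjusted p under 0.05, where 0.387% of all tested probe sets did. By gene this was 0 of 6, against 0.432% of 6022 genes. At an unadjusted p under 0.05 there were 3 of 8, the 2 of Rrm2 and 1 of Ccnd1, against 8.36% of all tested probe sets. None of the 8 separated the genotypes without overlap, as 1.36% of all tested probe sets did. Of the 8, 6 averaged lower in Gsr-null livers, where 56.7% of all tested probe sets had a difference below 0, and the 8 include 2 pairs that measure the same gene. The median difference of the 6 genes was -0.15, beside -0.032 over all tested genes.

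Rrm2 showed the largest difference among the members. Its probe set 1434437_x_at read 4.32, 4.23, 3.23, 3.96, 3.99 and 3.07 in Gsr-null samples 1 to 6, against 5.93, 4.51, 5.50, 3.65 and 5.15 in WT samples 1 to 5. All 6 Gsr-null livers lay below the WT median, and the groups overlapped because WT sample 4 was below 4 of them. The means were 3.80 ± 0.524 (SD, n = 6) in Gsr-null and 4.95 ± 0.893 (SD, n = 5) in WT livers. The difference was -1.15 (SE 0.38, 95% interval -1.98 to -0.32, limma adjusted p = 0.36). It was the 56th lowest difference of the 9560, and the probe set ranked 276th by limma p. Only 2 of 6 Gsr-null and 4 of 5 WT livers exceeded the log2 level of 4, so the fold reaches into signal treated as low. The identifier of this probe set marks one that can bind several transcripts.

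A second Rrm2 probe set, 1448226_at, which carries no such mark, had the same direction. It read 3.80, 4.15, 3.70, 3.99, 4.17 and 3.45 in Gsr-null samples 1 to 6, against 6.12, 4.09, 5.02, 3.74 and 4.52 in WT samples 1 to 5. All 6 Gsr-null livers were again below the WT median, and WT samples 2 and 4 lay within the Gsr-null range. The difference was -0.82 (SE 0.351, 95% interval -1.58 to -0.057, limma adjusted p = 0.547). The third Rrm2 probe set, 1416120_at, lay at 1.75 to 2.28 in Gsr-null and 2.06 to 2.25 in WT livers and shows no level that could fall.

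Among WT livers Rrm2 was higher in the 3 livers of the higher 3' to 5' set, while its mean in Gsr-null livers was 3.67 in the higher and 3.93 in the lower set. Within the higher set Rrm2 was 3.07 to 3.99 in 3 Gsr-null and 5.15 to 5.93 in 3 WT livers, a difference of -1.86 (limma adjusted p = 0.112). The groups did not overlap there, nor did those of the other tested Rrm2 probe set, both tested Ccnd1 probe sets and Mcm6. The share of all probe sets without overlap between 3 and 3 livers was not computed, so this does not set Rrm2 apart. Within the lower set it was 3.23 to 4.32 in 3 Gsr-null and 3.65 to 4.51 in 2 WT livers, a difference of -0.15 (limma adjusted p = 0.907). The change of the difference between sets did not pass the test (-1.70, SE 0.556, unadjusted p = 0.0114, limma adjusted p = 0.347). By that limma test 0 of 9560 probe sets were called and 1078, or 11.3%, had an unadjusted p under 0.05. Among the members Mcm6, Mcm7 (limma unadjusted p = 0.0227), Ccnd1 1448698_at (0.0283) and Rrm2 1448226_at (0.0325) also reached it. Rrm1, Pcna and Ccnd1 1417420_at did not. On 1448226_at the Rrm2 difference was -1.35 within the higher and -0.027 within the lower set. With the sets as a block the Rrm2 difference was -1.10 (limma adjusted p = 0.296). The part of RNA integrity in the result was not tested beyond these values.

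Rrm1, the partner subunit, had a narrow range and no difference of that size. Its tested probe set 1415878_at read 4.255, 4.333, 4.202, 4.202, 4.280 and 4.222 in Gsr-null samples 1 to 6, against 4.122, 3.814, 4.452, 3.950 and 4.251 in WT samples 1 to 5. All Gsr-null livers lay inside the WT range, and all of these values were close to the log2 level of 4. The difference was 0.13 (SE 0.122, 95% interval -0.13 to 0.40, limma adjusted p = 0.93). It was 0.38 within the lower and -0.040 within the higher 3' to 5' set. The other Rrm1 probe set was below 4 throughout, at 2.05 to 2.38 in Gsr-null and 1.95 to 2.64 in WT livers.

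**Figure D2:**
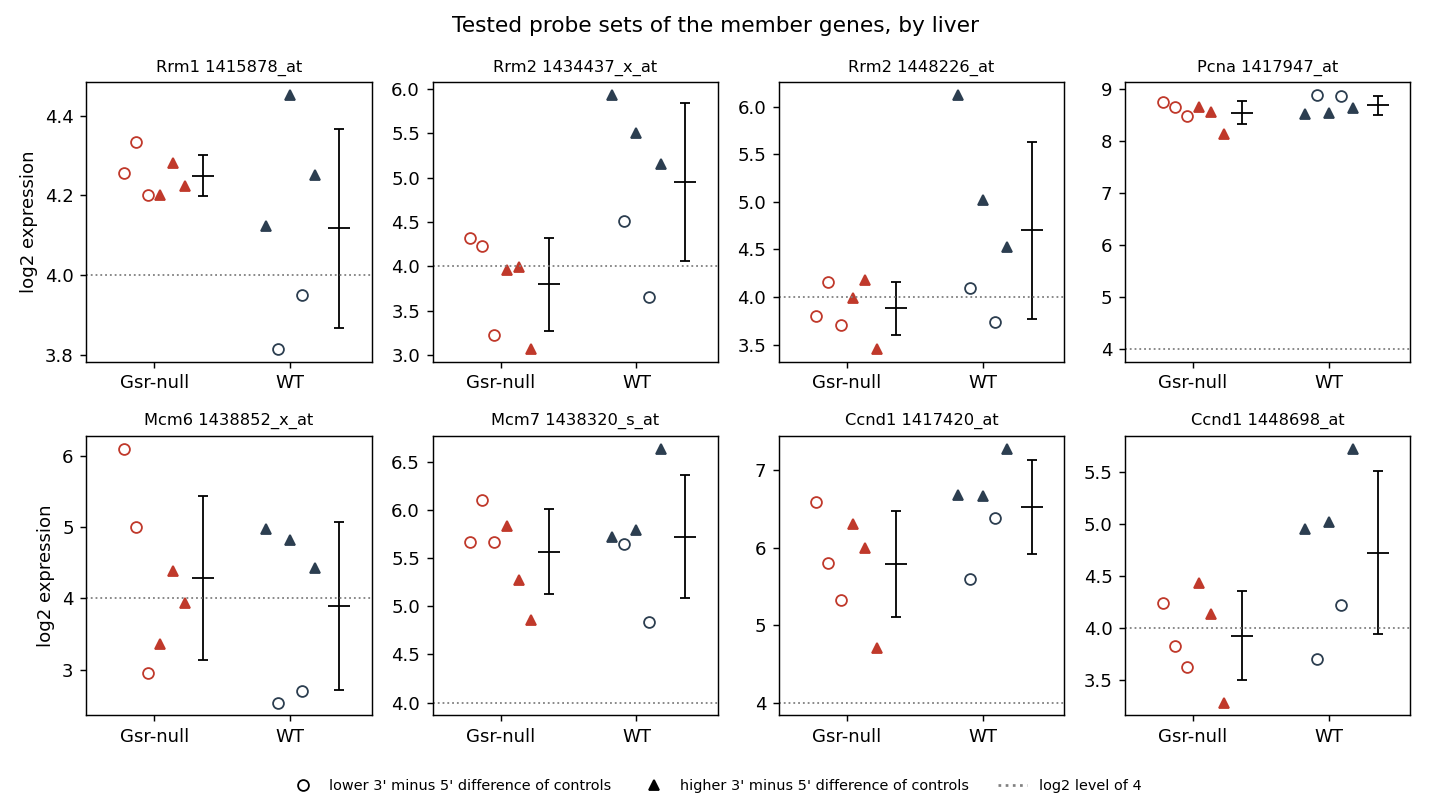
Log2 expression of the 8 tested member probe sets in each liver, Gsr-null left and WT right in every panel, with mean and SD as bars beside the points and axes scaled per panel. Circles are livers with a lower and triangles livers with a higher 3' minus 5' difference of control probe sets. For Rrm2 the 3 WT triangles lie at 5.15 to 5.93 on 1434437_x_at and at 4.52 to 6.12 on 1448226_at, above all 6 Gsr-null livers on each.

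Ccnd1, the cyclin that partners CDK4 and CDK6 in G1, also averaged lower in Gsr-null livers on both of its tested probe sets, without passing the test. On 1417420_at it read 6.59, 5.80, 5.32, 6.30, 6.00 and 4.70 in Gsr-null samples 1 to 6, against 6.68, 5.60, 6.67, 6.39 and 7.28 in WT samples 1 to 5. All 6 Gsr-null livers were below the WT median, yet 4 of them lay above the lowest WT liver, sample 2. The means were 5.79 ± 0.684 (SD, n = 6) in Gsr-null and 6.53 ± 0.61 (SD, n = 5) in WT livers, a difference of -0.74 (SE 0.35, 95% interval -1.50 to 0.022, limma adjusted p = 0.62). Without Gsr-null sample 6, the lowest liver, the difference was -0.52.

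On 1448698_at Ccnd1 read 4.24, 3.83, 3.63, 4.43, 4.13 and 3.28 in Gsr-null samples 1 to 6, against 4.95, 3.70, 5.02, 4.22 and 5.72 in WT samples 1 to 5. The WT livers of the higher 3' to 5' set, samples 1, 3 and 5, were above every Gsr-null liver. The difference was -0.80 (SE 0.329, 95% interval -1.51 to -0.084, limma adjusted p = 0.513). Within the higher set the 2 probe sets differed by -1.21 and -1.28, and within the lower set by -0.092 and -0.060, with limma adjusted p of 0.308 to 0.946. The third Ccnd1 probe set exceeded 4 in 1 Gsr-null and 1 WT liver. Ccne2, the S-phase cyclin that partners CDK2, did so in none, at 3.16 to 3.80 in Gsr-null and 3.01 to 3.74 in WT livers.

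**Figure D3:**
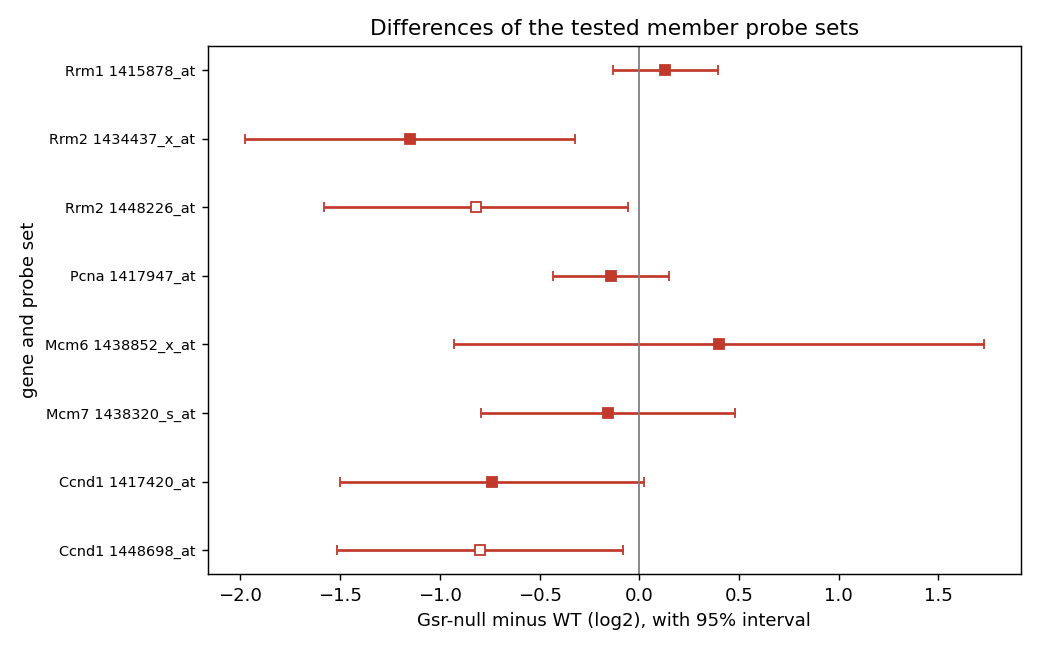
Gsr-null minus WT difference (log2) of the 8 tested member probe sets with its 95% interval from limma; filled squares are the probe set with the highest mean of each gene, open squares the second tested one. The Rrm2 pair at -1.15 and -0.82 and the Ccnd1 pair at -0.74 and -0.80 lie lowest, and no probe set passed the test over all 9560.

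Among the helicase subunits Mcm6 had the widest spread. Its tested probe set 1438852_x_at read 6.10, 5.00, 2.95, 3.36, 4.39 and 3.94 in Gsr-null samples 1 to 6, against 4.97, 2.54, 4.82, 2.70 and 4.43 in WT samples 1 to 5. The identifier of this probe set too marks one that can bind several transcripts, and no Mcm6 probe set without that mark was tested. Gsr-null samples 1 and 2 were the highest of all livers, and WT samples 2 and 4 the lowest. The difference was 0.40 (SE 0.61, 95% interval -0.93 to 1.73, limma adjusted p = 0.97), and it was 0.036 without Gsr-null sample 1. That liver also had the highest summed neutrophil markers, at 7.62, and Kupffer cell and macrophage markers, at 11.92, of the 11 livers, and their part in the Mcm6 value was not tested. Its direction turned with the 3' to 5' set, at 2.06 within the lower and -0.84 within the higher set (limma adjusted p = 0.442 and 0.422). The test of that change gave -2.91 (SE 0.93, unadjusted p = 0.0103, limma adjusted p = 0.331).

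A second Mcm6 probe set, 1416251_at, which was not tested, put the same livers at its ends. It read 4.34 and 4.33 in Gsr-null samples 1 and 2 and 1.96 and 1.78 in WT samples 2 and 4, with the other livers at 2.63 to 3.84.

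Mcm7 was above 4 in every liver on 1438320_s_at, a probe set that can bind several transcripts. It read 5.67, 6.10, 5.67, 5.83, 5.27 and 4.85 in Gsr-null samples 1 to 6, against 5.72, 5.64, 5.79, 4.83 and 6.64 in WT samples 1 to 5. The Gsr-null values lay inside the WT range. The difference was -0.16 (SE 0.293, 95% interval -0.79 to 0.48, limma adjusted p = 0.979), and it was 0.58 within the lower and -0.73 within the higher 3' to 5' set. Its other 3 probe sets exceeded 4 in at most 3 livers, WT sample 5 being the highest on each. Mcm2 stayed at 2.23 to 3.23 in Gsr-null and 2.15 to 2.96 in WT livers over both probe sets. On 1448777_at its difference was 0.34 (limma without the filter, unadjusted p = 0.0353, adjusted p = 0.622), and on 1434079_s_at it was 0.12. Both are differences of signal treated as low.

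Pcna, on 1 probe set, was far above the low level in every liver. It read 8.75, 8.64, 8.48, 8.65, 8.56 and 8.14 in Gsr-null samples 1 to 6, against 8.51, 8.88, 8.53, 8.85 and 8.63 in WT samples 1 to 5. The groups overlapped widely, with Gsr-null sample 6 lowest. The difference was -0.14 (SE 0.133, 95% interval -0.43 to 0.15, limma adjusted p = 0.931), so the interval leaves out a halving or a doubling. The Pcna difference was -0.24 within the lower and -0.11 within the higher 3' to 5' set. The 3 probe sets of Tyms lay at 1.46 to 2.27 in Gsr-null and 1.59 to 2.28 in WT livers, where a difference cannot be read. Across the 13 member probe sets that were not tested, limma without the filter gave adjusted p of 0.622 to 0.99.

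The members were next compared across the 11 livers, by correlating Rrm2 with each of the other 5 tested genes. Rrm2 and Ccnd1 had Pearson's r = 0.743 (permutation p = 0.0093, adjusted over 5 pairs 0.0464) and Spearman's rho = 0.745 (permutation p = 0.0105, adjusted 0.0524). Without WT samples 1 and 3, the livers farthest from the Rrm2 median, r was 0.77 (adjusted exact permutation p = 0.0446) and rho 0.583 (adjusted exact permutation p = 0.296). Within the Gsr-null livers r was 0.893 (n = 6, adjusted exact permutation p = 0.0486) and rho 0.771 (adjusted exact permutation p = 0.171), so the rank measure did not pass. Within the higher 3' to 5' set r was 0.831 (n = 6, adjusted exact permutation p = 0.132). No correlation was computed over fewer than 6 livers, so the relation is not tested among the 5 WT livers or the 5 livers of the lower set. In WT livers Rrm2 was highest in sample 1 and Ccnd1 in sample 5, and Rrm2 was lowest in sample 4 and Ccnd1 in sample 2. After the genotype means were taken off, r was 0.617 (adjusted permutation p = 0.0662). Of 15 alternatives 13 lost the call, all with r above 0, so the adjusted p of the pair lies at the threshold and rests on the choice of samples and scaling. Each gene entered every correlation by its tested probe set of highest mean, and the probe set was not varied. Those of Rrm2, Mcm6 and Mcm7 can bind several transcripts, so no r here shows how Rrm2 varied on its other tested probe set.

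For the other pairs r over all livers was 0.564 with Mcm7, 0.464 with Mcm6, 0.209 with Pcna and 0.151 with Rrm1, and their rho was 0.50, 0.491, 0.145 and 0.164. Their permutation p adjusted over the 5 pairs lay between 0.168 and 0.672 by either measure. Without WT samples 1 and 3, Mcm7 had r = 0.762 (adjusted exact permutation p = 0.0446) and rho = 0.517 (adjusted exact permutation p = 0.296). Once the genotype means were taken off, Mcm6 had r = 0.801 (adjusted permutation p = 0.0168) and rho = 0.864 (adjusted permutation p = 0.006). Rrm1 then had r = 0.595 (adjusted permutation p = 0.0662) and rho = 0.702 (adjusted permutation p = 0.048). For these deviations the permutation ran across both genotypes and made no allowance for the means taken off, so their p may be too small. Within the higher 3' to 5' set Mcm6 had r = 0.78 (n = 6, adjusted exact permutation p = 0.16). Within the Gsr-null livers Pcna had r = 0.891 (n = 6, adjusted exact permutation p = 0.0278) and rho = 0.829 (adjusted exact permutation p = 0.146). In WT livers the highest Pcna values, in samples 2 and 4, stood beside the lowest Rrm2 values, and the difference between genotypes in this relation was not tested.

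**Figure D4:**
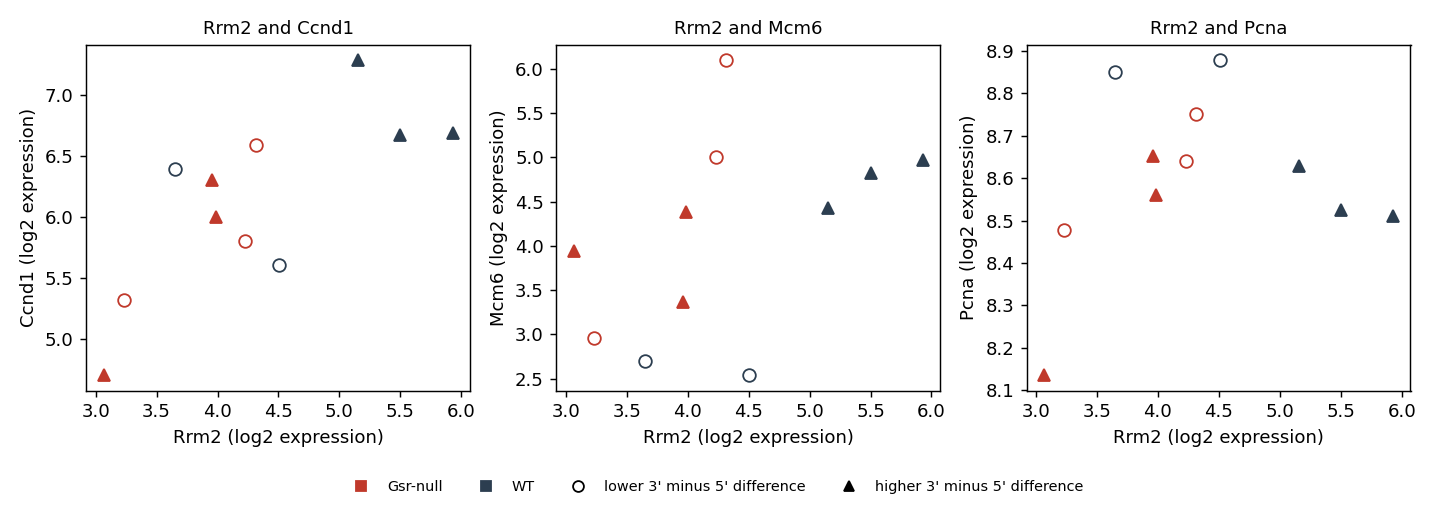
Log2 expression of Rrm2 (x axis) against Ccnd1, Mcm6 and Pcna (y axes), 1 point per liver, red for Gsr-null and dark for WT, with circles for the lower and triangles for the higher 3' minus 5' set. Rrm2 and Ccnd1 had r = 0.743 over the 11 livers, Rrm2 and Mcm6 0.464 and Rrm2 and Pcna 0.209.

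Of the 6021 other tested genes, those with the pattern most like Rrm2 after the genotype means were taken off were Zfp672 (r = 0.92), Camk1d (0.914) and Agpat3 (0.904). For Pcna they were Ptbp2 (0.956), Thap12 (0.936) and Klhl13 (0.935), and for Ccnd1 Mtrex (0.948), Sowahc (0.898) and Vps36 (0.881). All are over 11 livers, and none of these 9 is a member.

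The wider replication and division machinery was mostly at or below the low level. Of 54 further genes of replication licensing and the fork, 48 were on the array, 22 were tested and 0 passed in either direction, with 9 differences above and 13 below 0 and a median of -0.031. The smallest p there belonged to Pole4, a subunit of DNA polymerase epsilon, with a difference of 0.51 (limma adjusted p = 0.354), and to Gmnn, the licensing inhibitor geminin, with -0.59 (limma adjusted p = 0.501). Of 27 genes of mitosis 26 were on the array and 21 were below 4 in all livers, among them Mki67, Top2a and Cdk1. The 4 tested ones had differences below 0, with 0 called and a median of -0.22. They do not stand for the list. Of the 22 genes not tested, all but Kif11 and Nek2 had differences above 0, at low levels where a difference is hard to read. Among these, Mki67 differed by 0.20, Top2a by 0.39 and Cdk1 by 0.22. The share of all untested probe sets with a difference above 0 is not given here. The 5th percentile of the array values was 1.79 and 1.76 in Gsr-null samples 2 and 3, against 1.53 to 1.62 in the other livers. The part of this higher low end in the differences of untested genes was not tested. Among the 4 tested mitosis genes the lowest p were those of Bub3, a spindle checkpoint protein, at -0.26, and H2az1, a histone variant, at -0.73.

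Genes of G1 to S control gave 11 tested of 28 on the array, with 0 called, 3 differences above and 8 below 0 and a median of -0.14. Cdk4, the kinase partner of Ccnd1, differed by -0.35 (limma adjusted p = 0.538) and E2f5, an E2F family member, by -0.26 (limma adjusted p = 0.701). At an unadjusted p under 0.05 limma had 2 of 22 genes in the replication list, 1 of 11 in G1 to S control and 2 of 4 in mitosis, where 8.78% of all tested genes reached it. The median over all tested genes was -0.032.

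Of the enzymes of deoxynucleotide supply other than the members, 19 of 20 genes on the array passed the filter and were tested, with a median of 0.018. Some lay close to the low level, such as Tk1, the cytosolic thymidine kinase, at 3.68 to 5.06 in Gsr-null and 3.63 to 5.03 in WT livers. In this list 1 gene rose and 1 fell, 0.216% of all tested genes being called in each direction. Guk1, the guanylate kinase, was 5.48 to 6.21 in Gsr-null and 6.28 to 7.18 in WT livers and fell by 1.10 (SE 0.196, limma adjusted p = 0.0373). Shmt1, which feeds one-carbon units to thymidylate synthesis, was 9.996 to 10.48 in Gsr-null and 9.48 to 9.76 in WT livers and rose by 0.66 (SE 0.119, limma adjusted p = 0.0373). The groups did not overlap for either gene.

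Genes of the thioredoxin and glutaredoxin systems, which include those that pass electrons to ribonucleotide reductase, were all tested, 7 of 7, with a median difference of 0.020. Of these 7 only Gsr was called, at -1.83 (limma adjusted p = 1.82e-05). Glrx, the cytosolic glutaredoxin, read 9.49, 8.59, 10.1, 8.60, 9.06 and 9.09 in Gsr-null samples 1 to 6, against 8.30, 8.14, 8.13, 8.34 and 8.58 in WT samples 1 to 5. Its groups did not overlap, and the difference of 0.86 did not pass the test (limma adjusted p = 0.269). Txn1 and Txnrd1, the cytosolic thioredoxin and its reductase, differed by 0.034 and -0.0059.

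In whole liver RNA, fewer cells of a type and less RNA per cell cannot be told apart. Markers of other liver cell types were read beside the members. Kupffer cell and macrophage markers, tested in 8 of 9, summed to 10.63 to 11.92 in Gsr-null and 10.98 to 11.62 in WT livers. Sinusoidal endothelium markers, 4 of 5, summed to 8.92 to 10.05 in Gsr-null and 8.98 to 9.92 in WT livers. Stellate cell markers, 2 of 5, summed to 6.35 to 7.54 in Gsr-null and 6.43 to 6.76 in WT livers. Erythroid markers, 1 of 4 tested, summed to 8.84 to 10.3 in Gsr-null and 8.66 to 9.20 in WT livers. The tested one, Alas2, lay at 8.77 to 10.29 in Gsr-null and 8.58 to 9.13 in WT livers. Hba-a1, a globin gene, was below 4 in every liver on probe set 1453574_at. Probe sets of several symbols were left out, so the level of globin RNA as a whole is not shown.

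Markers of T and NK cells, 5 on the array, and of B cells, 3 on the array, were below 4 in all livers. Those of cholangiocytes, 4 on the array and 0 tested, summed to 4.40 to 5.09 in Gsr-null and 4.51 to 4.96 in WT livers. Neutrophil markers, 4 on the array and 0 tested, summed to 4.33 to 7.62 in Gsr-null and 4.27 to 4.65 in WT livers, with S100a8 and S100a9 above 4 in Gsr-null sample 1 only, at 6.63 and 6.50. No marker in these lists was called by limma. Among tested markers, Col1a2, a stellate cell collagen, differed by 0.89 and Alas2, of erythroid heme synthesis, by 0.59. Both had a limma unadjusted p under 0.05. Of the markers not tested, Col1a1, another collagen of the stellate cell list, differed by 0.74. Limma without the filter gave it an unadjusted p of 0.00429 and an adjusted p of 0.373. Cd79b, of the B cell list, differed by -0.24 (limma without the filter, unadjusted p = 0.0416). Both lay below 4 in every liver. The part of cell composition in the member values was not tested.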

How the data were processed

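Log2 expression values, 1 per probe set and sample, were used as deposited. The authors made them with GCRMA, per the submitters' processing notes, which corrects background, normalizes between arrays and summarises probes. The log base was read as 2 from the range of the deposited log2 values. The version, filters and batches are not given in the sources used here. Groups were taken from sample titles. Probe sets, without 64 controls, were named from the platform annotation when they had 1 symbol (20380; 691 had several, 1555 none), and 20351 of these were found in the RefSeq table of GRCm38.p6. Those that exceeded 4 (log2) in 5 or more samples were fitted with limma 3.58.1 (lmFit, eBayes) in R 4.3.3, with genotype as the 1 factor. The adjusted p covers all tested probe sets, and a call is one under 0.05. A gene is represented by its tested probe set of highest mean. Correlations used 100000 permutations, or all of them for fewer than 10 samples, two-sided. Deviations from genotype means were permuted across both genotypes with no allowance for the means taken off, so those p are approximate. The fit was checked on simulated data. Named genes are all members, Gsr, in each pathway list the called genes or else the 2 of smallest p, and the 3 genes most like Rrm2, Pcna and Ccnd1. Txn1, Txnrd1, Glrx, Tk1, Mki67, Top2a, Cdk1, Kif11, Nek2, Hba-a1, S100a8, S100a9, Col1a1 and Cd79b were named after their values were seen. The members, lists, alternatives and the boundary of 1 between the 3' to 5' sets were chosen with earlier results of these data known. As alternatives, the filter, the scaling, the variance model, array weights, blocks, the choice of probe set and the samples included were varied. The correlations were varied only by scaling, by deviations from genotype means and by the samples included. Replicate numbers shared by the genotypes did not pair the samples, as deviations of same-numbered samples correlated at -0.243 to 0.036.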

Additional observations from a re-analysis of the deposited data

Results flagged for a closer look

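Of 42 groups of member values examined, 1 sample stood far from the rest in 2, where chance would give 2.1. Mcm7 on probe set 1416031_s_at stood at 4.75 for WT sample 5, while the other WT livers lay at 3.93 to 4.12. Tyms on probe set 1427810_at stood at 1.93 for Gsr-null sample 3, while the other Gsr-null livers lay at 1.46 to 1.62, all far below the log2 level of 4.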

How the results depend on the processing

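Of 141 values of the 6 tested members under alternatives, 137 kept their direction and stayed outside the threshold, and 0 members were called under any of them. Mcm7 turned to 0.58 within the lower 3' to 5' set, and Rrm1 to -0.040 and Mcm6 to -0.84 within the higher one, where fewer samples enter. Leaving out 1 sample gave -1.47 to -0.91 for Rrm2, -0.97 to -0.52 for Ccnd1, 0.055 to 0.21 for Rrm1, -0.19 to -0.062 for Pcna, 0.036 to 0.67 for Mcm6, lowest without Gsr-null sample 1, and -0.38 to 0.071 for Mcm7, positive without WT sample 5. With the replicate block, which leaves out Gsr-null sample 6, Rrm2 was -1.004 and Ccnd1 -0.52. These are the same values as without that sample and with no block. Low signal limits Rrm2, Mcm6 and every untested member. Probe sets called, 16 higher and 21 lower, changed to 7 and 7 when the level of the filter was 6, to 6 and 7 when 4 had to be exceeded in all samples, to 2 and 1 with the replicate block, and to 6 and 4 without Gsr-null samples 2 and 3. Without 1 sample they were 9 to 24 and 5 to 19, moving by over 1.5 times for higher ones without WT sample 5, and for lower ones without any WT sample or Gsr-null sample 2 or 3. For Rrm2 with Ccnd1, r lost its call at 0.617 with deviations from genotype means, 0.736 with quantile normalization, 0.727 with median centring and 0.699 without Gsr-null samples 2 and 3. It was 0.657 to 0.803 without 1 sample, and kept its call there only without WT sample 2 or 4. With deviations, Rrm2 with Mcm6 gained a call at r = 0.801, by a permutation p that may be too small, and Rrm2 with Pcna turned to -0.049. Without 1 sample, Rrm2 with Pcna ranged over -0.243 to 0.369, negative without Gsr-null sample 6, and Rrm2 with Rrm1 over -0.081 to 0.282, negative without WT sample 3. The causes were not tested beyond smaller numbers of samples or probe sets.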
